A study of Mus musculus with 11 samples.

Results

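Retinoic acid is made, carried, broken down and sensed by a small set of proteins, and 9 of their genes are described here in 2 kinds of cultured mouse cell, embryonic stem cells (mESCs) and embryonic fibroblasts (MEFs): Dhrs3, Aldh1a1, Aldh1a2, Crabp1, Crabp2, Cyp26a1, Cyp26b1, Rarb and Rarg. They were taken by gene name from the deposited tables of raw read counts per gene, and all 9 were listed in both tables, among 34570 genes listed in either (31518 for mESCs and 29450 for MEFs). The study sequenced poly(A) RNA to learn what loss of Atxn7l3 does to transcription in each cell type. Atxn7l3 encodes an adaptor of the SAGA deubiquitylation module, which takes monoubiquitin off histone H2B. The 11 libraries fell into 4 groups, with genotype Atxn7l3+/+ (WT) in 2 mESC and 3 MEF libraries and genotype Atxn7l3-/- in 3 mESC and 3 MEF libraries, all of strain DBA/2 x C57BL/6 and given no treatment. The allele is a germline null made with a recombinase deleter strain. The mESCs grew with leukaemia inhibitory factor, 15% foetal calf serum, PD0325901 at 1 uM and CH99021 at 3 uM, after 2 passages on feeder cells. The MEFs came from E10.5 embryos and grew in DMEM with 10% foetal calf serum, penicillin and streptomycin. Each mESC line began as an individual blastocyst, and each MEF culture was made from what remained of an individual embryo after removal of head and gut, with the knockout cultures called MEF-like in the study. The study set aside a further WT mESC dataset, which did not cluster with the rest in a principal component analysis, and it was not analysed here. Total counts were 45234276 and 44323540 in WT mESCs, 35050190, 40459852 and 38381348 in Atxn7l3-/- mESCs, 49602605, 34515342 and 46722650 in WT MEFs and 43234808, 45963728 and 38283644 in Atxn7l3-/- MEFs, so that 3 counts in a library equal 0.0605 to 0.0869 CPM (counts scaled to library size).

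The labels were first compared with the counts. Atxn7l3 itself (ENSMUSG00000059995) stood at 222 and 223 CPM in the WT mESCs and at 3.91, 1.79 and 0.976 CPM in the Atxn7l3-/- mESCs. The log2 fold change was -6.65 (SE 0.53, adjusted p 0.0211), and without WT replicate 1 or 2 the adjusted p was 0.138 and 0.0659 (range over 13 alternatives 1.09e-33 to 0.138). In MEFs it stood at 79.7, 104 and 92.9 CPM in the WT libraries and at 49.2, 49.4 and 67.3 CPM in the libraries labelled Atxn7l3-/-. The MEF log2 fold change of -0.74 (SE 0.21) did not pass (adjusted p 0.0715). The knockout mESCs were thus near 0, while the MEFs labelled Atxn7l3-/- kept a large part of the WT level. These are counts of RNA per gene, and ATXN7L3 protein was not measured here. By western blot the study reports no detectable ATXN7L3 protein in its Atxn7l3-/- mESCs and MEFs, and more monoubiquitylated H2B in both. MEF libraries are named below by their label. The 9 pluripotency genes summed to 5683 ± 703 CPM in WT mESCs and 5687 ± 377 CPM in Atxn7l3-/- mESCs (mean ± SD), against 67.1 ± 25.3 and 71.8 ± 20.8 CPM in WT MEFs and labelled Atxn7l3-/- MEFs over the 7 that the MEF table lists (not Pou5f1 or Zfp42). Within the mESC sums genes lay in opposite directions: Dppa5a was higher in every Atxn7l3-/- library than in any WT library (917 and 1018 against 2200, 1267 and 1472 CPM), and Sox2 (254.7 and 301 against 154, 212 and 171 CPM), Klf4, Zfp42 and Tdgf1 were lower. The 9 fibroblast genes summed to 124 ± 84.9 and 417 ± 75.7 CPM in mESCs and to 24860 ± 18000 and 19300 ± 5035 CPM in MEFs, in the same order. In mESCs Tdgf1 passed as lower among the pluripotency genes and Col1a1 and Postn as higher among the fibroblast genes, and in MEFs Tfcp2l1 passed as higher. Their most abundant genes were Tfcp2l1 (1137 ± 147.5 CPM) and Dppa5a (1646 ± 490.2 CPM) in WT and Atxn7l3-/- mESCs and Col1a1 (7200 ± 5056 CPM) and Col3a1 (8298 ± 1444 CPM) in WT and labelled Atxn7l3-/- MEFs, where Dppa5a and Tdgf1 were at 0 in the latter. Sex-linked genes also varied between the lines. Ddx3y, a Y-linked gene, was at 90.6 and 193 CPM in WT mESCs but at 3.46, 0.882 and 225 CPM in Atxn7l3-/- mESCs, and Xist was at 10.96 and 25.3 CPM in WT and at 58.3, 51.0 and 2.80 CPM in Atxn7l3-/- mESCs. Kdm5d, also Y-linked, passed as lower in mESCs, with 6.66 and 25.1 CPM in WT and 0.872, 0.0238 and 0.686 CPM in Atxn7l3-/- libraries, so that knockout replicate 3 was high in Ddx3y and low in Kdm5d. Among MEFs, WT replicate 3 had 300.5 CPM of Xist and 0.218 CPM of Ddx3y, and the other 5 MEF libraries had Ddx3y at 59.2 CPM or more.

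Cells make retinoic acid from vitamin A in steps: retinol is oxidised to retinaldehyde, which retinaldehyde dehydrogenases turn into retinoic acid, while other enzymes run the first step backwards or break the acid down. Small cytoplasmic proteins carry the acid, and nuclear receptors bound to repeated DNA half-sites change the transcription of their targets when it binds them. In the embryo the pathway is known for patterning the trunk, limbs and body wall, and in culture retinoic acid drives embryonic stem cells out of pluripotency.

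Levels are given in CPM scaled by edgeR's trimmed mean of M values (TMM) within each cell type, in the order of replicates 1, 2 and 3. Knockout was compared with WT in each cell type by edgeR's quasi-likelihood test, and p-values were adjusted by Benjamini-Hochberg over all genes tested. A gene passed at an adjusted p of at most 0.05. Of the 9 genes, 7 had enough counts to be tested in mESCs (not Rarb or Aldh1a1) and 9 in MEFs. These p-values measure the spread between these libraries. For WT mESCs that is the spread of the 2 libraries that the study kept, which may understate the spread between WT lines. Where 1 library is left out below and a single WT mESC library remains, that library is taken to vary like the Atxn7l3-/- group.

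Dhrs3 (ENSMUSG00000066026, chr4:144892827-144928209, plus strand) encodes a reductase that turns retinaldehyde back into retinol and so draws substrate away from synthesis. In mESCs it stood at 6.23 and 3.71 CPM in WT and at 11.1, 6.43 and 8.81 CPM in Atxn7l3-/- libraries. The 3 knockout values lay above both WT values, the closest pair being 6.43 and 6.23 CPM, and the log2 fold change of 0.82 (SE 0.42) did not pass (adjusted p 0.238). Its MEF levels were 73.6, 51.2 and 38.4 CPM in WT and 37.0, 26.1 and 11.95 CPM in labelled Atxn7l3-/- libraries. Here the order was the opposite, with each WT library above each labelled Atxn7l3-/- library, and within each number the knockout was the lower one. The log2 fold change of -1.12 (SE 0.45) did not pass (adjusted p 0.14). MEF libraries of the same number deviated together from their group means, a pairing read from the counts and not from the labels. When a blocking term for the replicate number was added, the log2 fold change was -1.21 (SE 0.24) and passed (adjusted p 0.0378). That was the lowest of a range from 0.0378 to 0.29 over 14 alternatives. In cultures measured in bulk, fewer cells of a type and less RNA per cell cannot be told apart, here and for each gene below.

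Aldh1a1 (ENSMUSG00000053279, chr19:20492715-20643462, plus strand) is a retinaldehyde dehydrogenase, 1 of the enzymes that make retinoic acid. It was close to the limit of detection in mESCs, with 2 and 3 counts in WT and 0, 5 and 3 counts in Atxn7l3-/- libraries. No difference between the mESC groups was detectable at this depth: the ratio of pooled counts, knockout to WT, was 1.28 with a 95% counting interval of 0.370 to 4.99 (exact Clopper-Pearson, counting error only). MEFs held far more, with 136, 34.8 and 46.5 CPM in WT and 1243, 1621 and 529.8 CPM in labelled Atxn7l3-/- libraries. All 3 labelled Atxn7l3-/- libraries lay above all 3 WT libraries, and the lowest of them was still several times the highest WT library. It rose by 3.97 on the log2 scale (SE 0.70, adjusted p 0.0247). The call rests on several libraries: without WT replicate 2, WT replicate 3, knockout replicate 1 or knockout replicate 2 the adjusted p was 0.0514, 0.0828, 0.069 and 0.0712, at log2 fold changes of 3.67, 3.76, 3.91 and 3.63, in a range of adjusted p from 5e-08 to 0.0828 over 14 alternatives. Its near-identical neighbour Aldh1a7, with which it could share reads, stood at 10.2, 3.01 and 10.3 CPM in WT and 41.6, 47.7 and 20.7 CPM in labelled Atxn7l3-/- MEFs, far below Aldh1a1 in each library. On the opposite strand inside Aldh1a1 lies the non-coding gene C730002L08Rik, at 0.244 ± 0.227 CPM in WT and 16.1 ± 6.26 CPM in labelled Atxn7l3-/- MEFs. Whether the counting kept the strands apart is not stated for these tables.

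Aldh1a2 (ENSMUSG00000013584, chr9:71215789-71296243, plus strand) is the retinaldehyde dehydrogenase that supplies most retinoic acid to the trunk of the early embryo. In mESCs it stood at 5.31 and 9.98 CPM in WT and at 18.3, 19.0 and 22.8 CPM in Atxn7l3-/- libraries. The knockout libraries lay close together and above both WT libraries, but the log2 fold change of 1.39 (SE 0.36) missed the threshold (adjusted p 0.0597). It passed with DESeq2 (adjusted p 0.00331) and without the filter on low counts (0.0208), in a range of 0.00331 to 0.425 over 13 alternatives. In MEFs it stood at 35.1, 4.07 and 10.97 CPM in WT and at 95.9, 20.1 and 15.6 CPM in labelled Atxn7l3-/- libraries. Replicate 1 was the highest library of both MEF groups, and WT replicate 1 lay above 2 of the labelled Atxn7l3-/- libraries, so the groups overlapped, while within each number the knockout was the higher one. The log2 fold change was 1.39 there too, with an SE of 0.96 (adjusted p 0.344), but it depended on replicate 1: it was 0.104 without knockout replicate 1 and 2.54 without WT replicate 1, the ends of its range over 14 alternatives (adjusted p 0.0699 to 0.952).

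**Figure D1:**
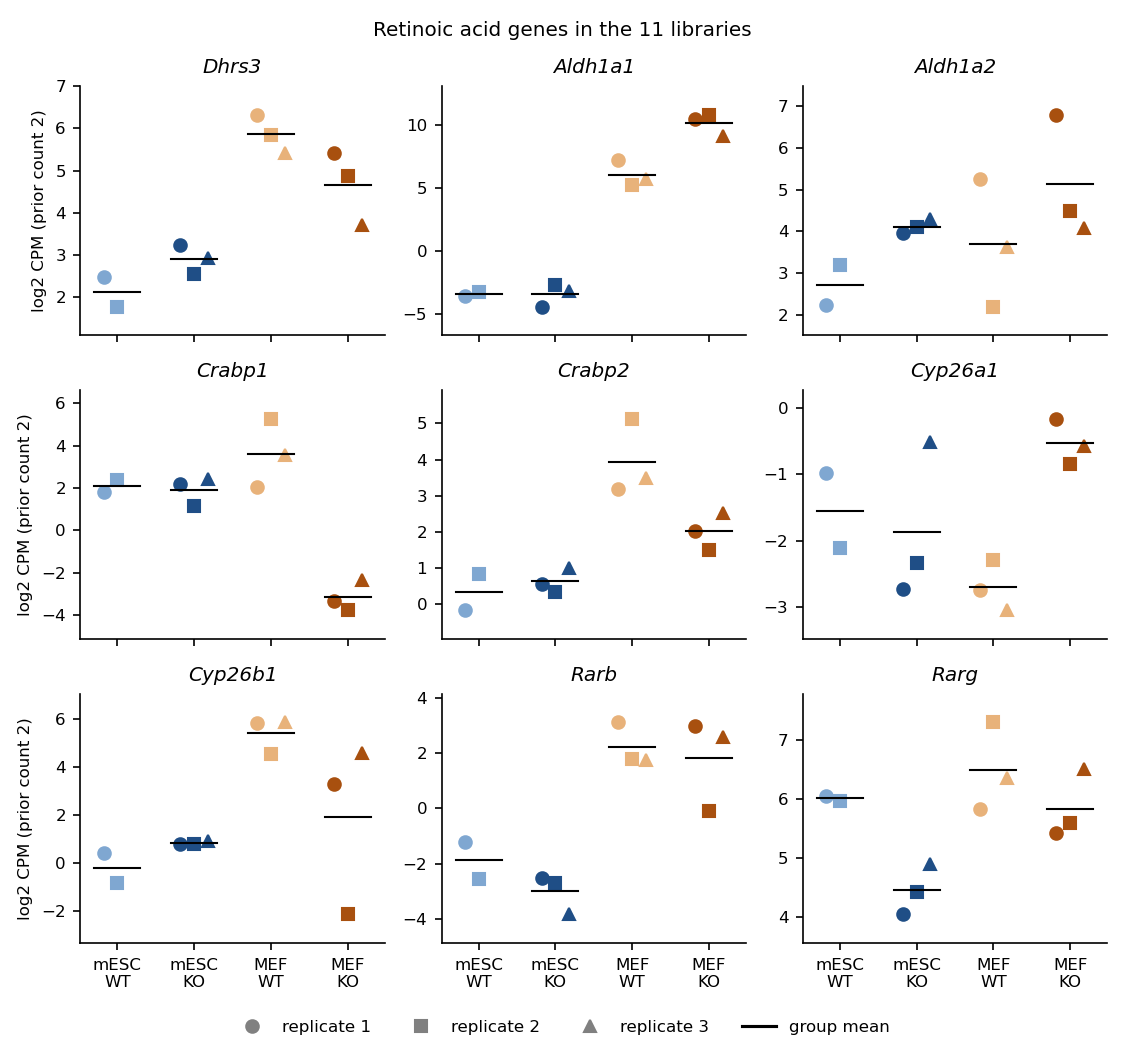
Level of each of the 9 genes in each library, as log2 CPM with a prior count of 2 (y axis, its own range for each gene), in WT and knockout (KO, labelled Atxn7l3-/-) mESCs and MEFs. Points are libraries with a marker for each replicate number and black bars are group means. In MEFs Aldh1a1 was higher in all 3 KO libraries and Crabp1 lower, and in mESCs Rarg was lower in all 3 KO libraries.

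Crabp1 (ENSMUSG00000032291, chr9:54764748-54773110, plus strand) encodes a cytoplasmic protein that binds retinoic acid and is known for passing it to degradation. In mESCs it stood at 3.85 and 5.68 CPM in WT and at 5.32, 2.43 and 6.23 CPM in Atxn7l3-/- libraries, and the groups overlapped (log2 fold change -0.032, SE 0.51, adjusted p 0.973). This sign is not stable: it was positive without WT replicate 2 (0.28) or without knockout replicate 2 (0.28). In MEFs it had 198, 1238 and 481 counts in WT, or 3.72, 34.5 and 10.49 CPM, and 2, 1 and 5 counts in labelled Atxn7l3-/- libraries, or 0.0462, 0.0228 and 0.137 CPM. Every labelled Atxn7l3-/- library was thus at or near the level of 3 counts, while the WT libraries were spread widely. Pooled counts gave a ratio of knockout to WT of 0.00456 (95% counting interval 0.001965 to 0.009), and the fitted log2 fold change was -7.87 (SE 1.18, adjusted p 0.0175). Without WT replicate 3, knockout replicate 1 or knockout replicate 2 the adjusted p was 0.052, 0.0661 and 0.0651, with log2 fold changes of -8.09, -7.65 and -7.44, in a range from 1.22e-13 to 0.0661 over 13 alternatives.

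Crabp2 (ENSMUSG00000004885, chr3:87948666-87953376, plus strand) encodes the related carrier that delivers retinoic acid to its receptors. In mESCs it stood at 0.945 and 1.92 CPM in WT and at 1.68, 1.36 and 2.27 CPM in Atxn7l3-/- libraries. These overlapped, with a log2 fold change of 0.30 (SE 0.53, adjusted p 0.736) that turned to -0.13 without WT replicate 1. Crabp2 in MEFs stood at 8.37, 31.3 and 9.92 CPM in WT and at 3.51, 2.46 and 5.25 CPM in labelled Atxn7l3-/- libraries. All 3 of the latter lay below all 3 WT libraries, of which replicate 2 was the highest, as it was for Crabp1. The log2 fold change of -2.14 (SE 0.61) did not pass (adjusted p 0.0709), although it did with DESeq2 (0.00566) and in 1 fit of the 11 libraries (0.0281), in a range of 0.00566 to 0.203 over 14 alternatives.

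Cyp26a1 (ENSMUSG00000024987, chr19:37697808-37701528, plus strand) encodes a cytochrome P450 that degrades retinoic acid and is itself a classical target of the receptors. Counts were low throughout, at 24 and 9 in WT mESCs and 4, 7 and 29 in Atxn7l3-/- mESCs, or 0.516 and 0.204 against 0.120, 0.167 and 0.765 CPM. The knockout mESC libraries spanned the WT range on both sides (log2 fold change -0.035, SE 0.88, adjusted p 0.983), and the sign turned without WT replicate 1 (0.77), knockout replicate 1 (0.37) or knockout replicate 2 (0.31). In MEFs it had 5, 5 and 3 counts in WT and 32, 20 and 21 in labelled Atxn7l3-/- libraries, or 0.0939, 0.140 and 0.0654 against 0.739, 0.456 and 0.577 CPM. The groups were well apart but each value rests on few reads. The gene rose by 2.55 on the log2 scale (SE 0.50, adjusted p 0.0333), and pooled counts gave a ratio of 6.13 (95% counting interval 3.37 to 12.1). The call was lost with no filter on low counts (adjusted p 0.0584). It was also lost without WT replicate 1, 2 or 3 (0.0789, 0.0522 and 0.11) and without knockout replicate 1 or 2 (0.115 and 0.0894), in a range of 0.00397 to 0.115 over 13 alternatives.

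Cyp26b1 (ENSMUSG00000063415, chr6:84571414-84593908, minus strand) encodes a related degrading enzyme, known from limb and gonad. In mESCs it stood at 1.44 and 0.566 CPM in WT and at 1.99, 1.86 and 2.14 CPM in Atxn7l3-/- libraries, higher in each knockout library, with a log2 fold change of 0.99 (SE 0.55) that did not pass (adjusted p 0.27). Cyp26b1 in MEFs stood at 52.0, 21.1 and 52.2 CPM in WT and at 8.59, 0.1597 and 22.3 CPM in labelled Atxn7l3-/- libraries. Replicate 2 was the lowest of both groups, and WT replicate 2 lay just under labelled Atxn7l3-/- replicate 3, so that the groups overlapped. Within each number, however, the knockout was the lower one. The log2 fold change of -2.01 (SE 1.25) did not pass (adjusted p 0.298), nor did that of -3.14 with the replicate block (adjusted p 0.121). In MEFs the degrading enzymes thus had log2 fold changes of opposite sign, of which that of Cyp26a1 alone passed.

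Rarg (ENSMUSG00000001288, chr15:102234938-102257517, minus strand) encodes the gamma receptor. In mESCs it stood at 74.9 and 68.7 CPM in WT and at 19.3, 23.8 and 34.8 CPM in Atxn7l3-/- libraries. The 2 WT libraries that the study kept were close together and each knockout library was well below them. Rarg fell by 1.47 on the log2 scale (SE 0.27, adjusted p 0.031). Knockout replicate 3, whose Ddx3y level was above both WT libraries, was the highest of the 3, and the part of the sex of the lines in this fall was not tested. The call was lost in 1 fit of the 11 libraries (adjusted p 0.0912) and without WT replicate 1 (0.196), WT replicate 2 (0.172) or knockout replicate 1 (0.0921), at log2 fold changes of -1.52, -1.42, -1.53 and -1.29, in a range from 0.000348 to 0.196 over 13 alternatives. Rarg in MEFs stood at 52.4, 140 and 73.0 CPM in WT and at 37.2, 42.8 and 82.95 CPM in labelled Atxn7l3-/- libraries. The groups overlapped, with a log2 fold change of -0.70 (SE 0.46, adjusted p 0.317) that turned to 0.089 with a correction for GC content and 0.15 with that correction and the block.

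Rarb (ENSMUSG00000017491, chr14:16430839-16819156, minus strand) encodes the beta receptor, whose own gene is switched on by retinoic acid in many cells. In mESCs it had 20 and 6 counts in WT and 5, 5 and 1 in Atxn7l3-/- libraries, or 0.430 and 0.136 against 0.1504, 0.119 and 0.0264 CPM, too few to be tested. The groups overlapped, and pooled counts gave a ratio of knockout to WT of 0.339 (95% counting interval 0.151 to 0.711), which covers counting error and not the spread between lines. In MEFs it stood at 7.92, 3.07 and 2.97 CPM in WT and at 6.90, 0.798 and 5.38 CPM in labelled Atxn7l3-/- libraries. These overlapped almost fully (log2 fold change -0.0945, SE 0.81, adjusted p 0.944), and the sign turned with a correction for GC content (0.18) and without WT replicate 1 (0.53) or knockout replicate 2 (0.41). Top2b, a far more abundant gene, overlaps Rarb on the opposite strand, with group means from 106 CPM in WT mESCs to 318 CPM in labelled Atxn7l3-/- MEFs.

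**Figure D2:**
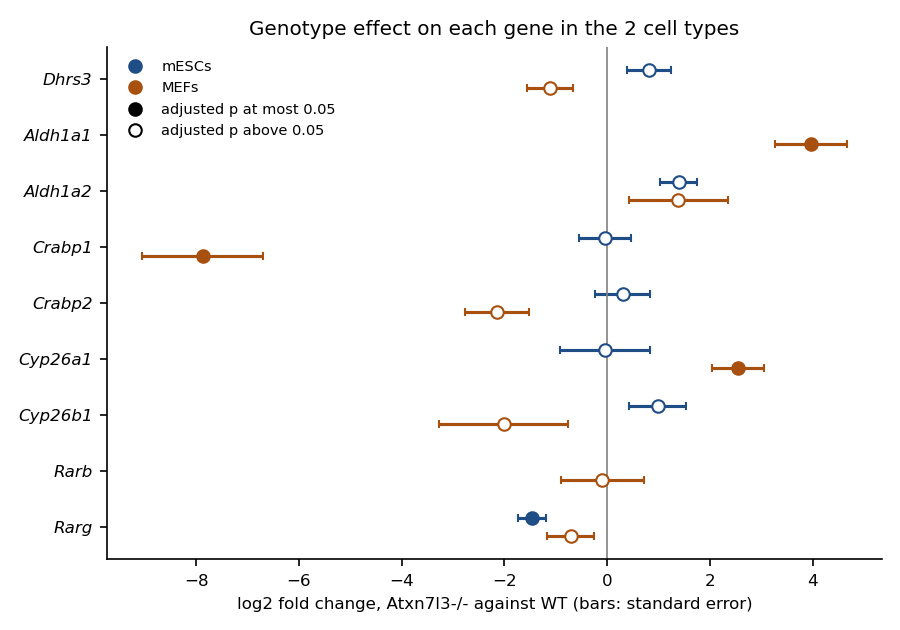
Log2 fold change, Atxn7l3-/- against WT, of each gene in mESCs and MEFs (x axis), with bars of 1 standard error and filled points where the adjusted p was at most 0.05. Rarb and Aldh1a1 were not tested in mESCs. Filled points are Rarg at -1.47 in mESCs and Crabp1 at -7.87, Aldh1a1 at 3.97 and Cyp26a1 at 2.55 in MEFs.

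The receptors bind half-sites of 6 bases, often as direct repeats, and the promoters were searched for such letters. The half-site AGGTCA and its forms AGTTCA as well as GGGTCA as well as GGTTCA were sought on both strands, alone and as direct repeats with 1, 2 or 5 bases between them, in the RefSeq promoters of build GRCm38.p6, from 250 bases before to 50 after each annotated start. Of the 9 genes, 8 matched by symbol, with 12 promoters. A half-site alone is common, in 43.7% of all 32851 promoters, and 4 members had one (Rarb, Rarg, Aldh1a1 at its start 2 and Cyp26a1). The direct repeat with 5 bases between, the classical response element of the receptors, is rare, in 0.0974% of promoters, or 32, and the repeats with 1 and 2 bases between lie in 0.222% and 0.268%. Rarb and Cyp26a1 held the repeat with 5 bases between. In Rarb it lies 53 to 37 bases before the start on the strand of the gene, and in Cyp26a1 32 to 16 bases before the start on the opposite strand. Both promoters are shown 5' to 3' on the strand of the gene, for Rarb chr14:16575427-16575726 on the minus strand, inside the gene, and for Cyp26a1 chr19:37697558-37697857 on the plus strand, with the half-sites of the repeat in capitals (as their reverse complement in Cyp26a1). The capitals mark letters found in the sequence, and binding was not measured in these libraries.
Rarb promoter: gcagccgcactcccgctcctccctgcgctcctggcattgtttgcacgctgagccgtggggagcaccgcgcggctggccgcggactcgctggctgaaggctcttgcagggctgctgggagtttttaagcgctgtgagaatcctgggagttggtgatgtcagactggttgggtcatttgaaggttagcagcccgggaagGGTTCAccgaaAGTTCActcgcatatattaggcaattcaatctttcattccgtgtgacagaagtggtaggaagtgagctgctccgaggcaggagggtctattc
Cyp26a1 promoter: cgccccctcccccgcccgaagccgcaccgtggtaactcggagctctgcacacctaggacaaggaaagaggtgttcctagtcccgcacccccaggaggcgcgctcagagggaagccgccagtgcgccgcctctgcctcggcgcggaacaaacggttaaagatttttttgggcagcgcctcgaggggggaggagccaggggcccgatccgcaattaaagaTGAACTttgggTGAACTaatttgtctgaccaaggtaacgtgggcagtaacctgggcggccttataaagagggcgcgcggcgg

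The genes with this repeat did not move alike. Cyp26a1 rose in MEFs, while Rarb had a MEF log2 fold change of -0.0945 that did not pass, and in mESCs both were at few counts. Crabp1, Aldh1a2, Cyp26b1 and Dhrs3 held none of the half-sites in this window. Among the other pathway genes, 38 matched with 54 promoters, and 1 held a direct repeat, Bco1, with 1 base between.

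**Figure D3:**
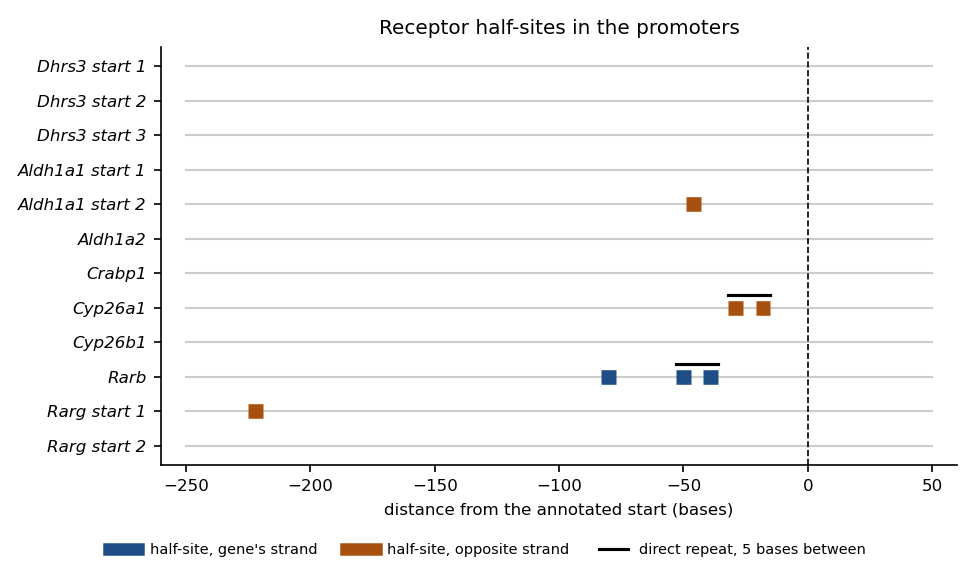
Position of receptor half-sites in the 12 promoters of 8 genes (y axis), in bases from the annotated start (x axis), coloured by strand, with a black line over direct repeats with 5 bases between. The repeats lie 53 to 37 bases before the start of Rarb and 32 to 16 bases before that of Cyp26a1.

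Counted together, 1 of the 7 genes tested in mESCs passed, Rarg, and it was lower in the knockout, where 3.88% of the 17800 genes tested were lower and 3.08% higher. No member passed as higher with edgeR, while at an unadjusted p under 0.05 there were 1 higher and 1 lower, and DESeq2 called 1 higher and 1 lower. Over all 17800 genes, 2666 were higher and 2643 lower at an unadjusted p under 0.05. DESeq2 called 1695 higher and 1695 lower of 19040. The median log2 fold change of the 7 was 0.30, against 0.044 over all genes tested. In MEFs 2 of the 9 passed as higher, Aldh1a1 and Cyp26a1, and 1 as lower, Crabp1, where 5.01% of 15958 genes were higher and 4.39% lower. Their median log2 fold change was -0.70, against -0.056 over all genes. The groups did not overlap for 3 genes higher and 1 lower in mESCs, beside 24.6% and 25.1% of all genes tested, and for 2 higher and 3 lower in MEFs, beside 20.0% and 19.8%.

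The number of all genes called moved with single libraries. In mESCs it was 1238, and 0 without WT replicate 1 or WT replicate 2, 3 without knockout replicate 1 and 2242 without knockout replicate 2. Those counts of 0 came from edgeR, which at an unadjusted p under 0.05 gave 2932 genes without WT replicate 1 and 2994 without WT replicate 2, and DESeq2 called 3390 with the 5 libraries. In MEFs it was 1501, and 464, 866 and 197 without WT replicate 1, 2 or 3 and 252 and 285 without knockout replicate 1 or 2. The number of the 9 genes called in MEFs was 2, 1, 0, 0 and 0 under those same omissions, and 5, 4, 5, 5 and 4 had an unadjusted p under 0.05. Of the 16268 to 16695 genes tested there, 5102, 5150, 3983, 3903 and 3566 had such a p. DESeq2 called 4 of the 9 with all 6 libraries, beside 3920 of 19569 genes. In MEFs 800 genes were higher and 701 lower, which became 1027 and 565 with a correction for GC content and 877 and 1355 with the replicate block. The GC correction moved the median log2 fold change of all MEF genes by 0.179, and Aldh1a1, Cyp26a1 and Crabp1 kept their directions relative to that shift.

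Whether the knockout effect differed between the cell types was tested in 1 fit of the 11 libraries over 19326 genes, as the effect in MEFs minus that in mESCs. Crabp1 alone of the 9 passed, at -7.78 on the log2 scale (SE 1.35, adjusted p 0.00941), where 5.27% of genes were lower and 6.14% higher. Without mESC WT replicate 1 or 2 its adjusted p was 0.0702 and 0.0623, at -7.50 and -8.10 (range over 17 alternatives 2.15e-08 to 0.0702). No gene of the 9 passed as higher with edgeR, where 2 were higher and 3 lower at an unadjusted p under 0.05 and DESeq2 called 1 higher and 3 lower. Over all 19326 genes, 2919 were higher and 3062 lower at an unadjusted p under 0.05. DESeq2 called 2000 higher and 2188 lower of 19587. Dhrs3, with effects of opposite sign, differed by -1.85 (SE 0.64, adjusted p 0.0806) and passed with the block (-1.97, adjusted p 0.0355) and with DESeq2 (-1.89, adjusted p 0.0336), in a range of 0.0336 to 0.273. Cyp26a1 differed by 2.66 (SE 1.08, adjusted p 0.124) and passed without mESC knockout replicate 3 (3.89, adjusted p 0.0397), with the GC correction (3.84, adjusted p 0.0407) and with that correction and the block (4.8045, adjusted p 0.0345), in a range of 0.0345 to 0.411. Aldh1a1 differed by 3.72 (SE 1.68, adjusted p 0.16, range 0.0219 to 0.437) and Crabp2 by -2.38 (SE 0.86, adjusted p 0.092, range 0.0291 to 0.299), and both passed with DESeq2 (adjusted p 0.0219 and 0.0291). Cyp26b1 differed by -2.96 (SE 1.58, adjusted p 0.228). For Rarg the difference was 0.81 (SE 0.59, adjusted p 0.372), so that its fall in mESCs was not shown to be particular to them, although it passed with the GC correction (1.77, adjusted p 0.0471) and with that correction and the block (2.02, adjusted p 0.0362), in a range of 0.0362 to 0.64. Rarb differed by 1.47 (SE 1.26, adjusted p 0.453). Aldh1a2 had the least difference, 0.11 (SE 1.17, adjusted p 0.959), with a sign that turned where 10 counts were required of every library (-0.0098) and without mESC WT replicate 2 (-0.43), MEF WT replicate 2 (-0.35), MEF WT replicate 3 (-0.11) or MEF knockout replicate 1 (-1.23).

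The median difference over the 9 genes was 0.11, against -0.093 over all genes tested. The fit called 2205 genes in all, 1187 higher and 1018 lower. The replicate block brought this to 1381, and the GC correction to 1244 higher and 596 lower, with a shift of the median of all genes by 0.169. Leaving out 1 mESC library gave 253 and 322 genes without WT replicate 1 or 2 and 887 and 1075 without knockout replicate 1 or 3. Leaving out 1 MEF library gave 1442 without WT replicate 3 and 1173 and 1070 without knockout replicate 1 or 2.

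The cell types themselves differed far more than the genotypes. Among WT cells, 5 of the 9 genes were higher in MEFs than in mESCs and none was lower, where 26.8% of the 19326 genes were higher and 27.1% lower. EdgeR gave no member as lower at an unadjusted p under 0.05, nor did DESeq2. On the scale of the joint fit, Aldh1a1 averaged 79.6 CPM in WT MEFs against 0.04997 CPM in WT mESCs, from 5 counts in the latter, a ratio of pooled counts of 1757 (95% counting interval 752.9 to 5414) and a log2 fold change of 10.56 (SE 1.097, adjusted p 4.05e-05). Cyp26b1 was higher by 5.68 (SE 1.46, adjusted p 0.00776), Rarb by 4.32 (SE 1.08, adjusted p 0.0068), Crabp2 by 3.83 (SE 0.73, adjusted p 0.00154) and Dhrs3 by 3.75 (SE 0.55, adjusted p 0.000306). Without mESC WT replicate 2 the calls of Cyp26b1 (adjusted p 0.0735) and Rarb (0.0698) were lost, at 5.17 and 3.74 and in ranges of 1.76e-06 to 0.0735 and 1.05e-05 to 0.0698 over 11 alternatives each. That omission left 3 of the 9 genes called and 6518 of all genes, against 10423. Crabp1, at 2.08 (adjusted p 0.0656), passed without MEF WT replicate 1 (2.56, adjusted p 0.0163) and with DESeq2 (adjusted p 0.0282), in a range of 0.0163 to 0.323. Aldh1a2, Rarg and Cyp26a1 did not pass, at 1.41, 0.61 and -1.54. The median over the 9 genes was 3.75, against -0.005 over all genes, and the GC correction moved the median of all genes by -0.125.

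Among knockout cells, compared over libraries that the WT comparison does not use, 6 of the 9 were higher in MEFs and 1 lower, where 29.5% of genes were higher and 31.5% lower. Aldh1a1 averaged 1275 CPM against 0.0582 CPM, from 8 counts in the mESCs, a ratio of 21270 (95% counting interval 10790 to 49260) and a log2 fold change of 14.28 (SE 0.99, adjusted p 2.23e-06). Rarb was higher by 5.79 (SE 1.00, adjusted p 0.000632), Dhrs3 by 1.90 (SE 0.43, adjusted p 0.00308) and Rarg by 1.42 (SE 0.40, adjusted p 0.0107). Crabp1 was the lower one, at 0.0761 CPM in MEFs against 4.02 CPM in mESCs and a log2 fold change of -5.70 (SE 0.96, adjusted p 0.000531). It thus lay on the mESC side in knockout cells, while its WT MEF mean was above its WT mESC mean. Cyp26b1 was higher by 2.72 (SE 1.07, adjusted p 0.0453), a call lost with the block (adjusted p 0.143) and without mESC knockout replicate 1, 2 or 3 (0.111, 0.108 and 0.102) or MEF knockout replicate 1 or 3 (0.0637 and 0.217), in a range from 0.000676 to 0.217. Crabp2 was higher by 1.44 (SE 0.57, adjusted p 0.0461), a call lost with RLE scaling (adjusted p 0.0517) and where 10 counts were required of every library (0.0565). It was also lost without mESC knockout replicate 1, 2 or 3 (0.114, 0.122 and 0.0633) or MEF knockout replicate 1 or 3 (0.0774 and 0.133), in a range from 0.0268 to 0.133. Aldh1a2 and Cyp26a1 did not pass, at 1.52 and 1.12, but Cyp26a1 did without mESC knockout replicate 3 (2.35, adjusted p 0.0127), with the GC correction (2.001, adjusted p 0.0238) and with that correction and the block (2.11, adjusted p 0.0351), in a range of 0.0127 to 0.423. The median of the 9 was 1.52, against -0.104 over all genes.

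Levels of different genes were compared per length, as CPM of the joint fit divided by the deposited median transcript length in kb. In WT mESCs Rarg led at 95.1 ± 4.13 CPM per kb (mean ± SD), far above Crabp1 at 5.35 ± 1.55. Crabp1, Dhrs3 (3.63 ± 1.24), Aldh1a2 (3.05 ± 1.36) and Crabp2 (1.63 ± 0.811) followed, each overlapping the next. Below a gap came Rarb (0.240 ± 0.174), Cyp26b1 (0.215 ± 0.130) and Cyp26a1 (0.181 ± 0.109), which overlapped, and then Aldh1a1 (0.0523 ± 0.0175). In Atxn7l3-/- mESCs Rarg again led, at 33.2 ± 9.82, and Aldh1a2 (7.68 ± 0.860), Dhrs3 (6.19 ± 1.498) and Crabp1 (5.01 ± 2.03) overlapped in turn. Crabp2 (1.93 ± 0.461) and Cyp26b1 (0.415 ± 0.0196) stood apart from their neighbours, and Cyp26a1 (0.170 ± 0.172), Rarb (0.0818 ± 0.0533) and Aldh1a1 (0.0610 ± 0.0567) overlapped at the bottom. In WT mESCs a receptor was thus the most abundant member, with synthesis and degradation enzymes far below it.

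In WT MEFs the spread between cultures was wide, and from Rarg (145 ± 76.8 CPM per kb) through Aldh1a1 (83.3 ± 62.1), Dhrs3 (49.0 ± 15.2), Crabp2 (23.2 ± 18.2), Crabp1 (22.6 ± 22.7), Cyp26b1 (11.1 ± 4.69) and Aldh1a2 (8.10 ± 7.78) to Rarb (4.87 ± 2.87) each gene overlapped the next. Cyp26a1 lay apart at 0.0623 ± 0.0238. In labelled Atxn7l3-/- MEFs Aldh1a1 led without overlap at 1335 ± 664.5, and Rarg followed at 89.0 ± 38.5. Dhrs3 (23.1 ± 12.1) and Aldh1a2 (22.0 ± 23.1) overlapped, and Crabp2 (5.25 ± 1.87), Rarb (4.66 ± 3.44), Cyp26b1 (2.75 ± 2.91) and Cyp26a1 (0.374 ± 0.0967) overlapped in turn above Crabp1 (0.0949 ± 0.0813). The 9 genes together summed to 111 and 108 CPM per kb in WT mESCs and 47.0, 48.7 and 68.4 in Atxn7l3-/- mESCs, where Rarg made up most of the sum with the deposited median length. They summed to 359, 422 and 261 in WT MEFs and 1659, 2013 and 775 in labelled Atxn7l3-/- MEFs, where Aldh1a1 did. The deposited median length is short for genes with many partial transcripts, such as Rarg (678.5 bases, against 2953 for its longest coding GENCODE M21 transcript). With the longest coding transcript, chosen after seeing the data, Aldh1a2 (7.68) came level with Rarg (7.62) in Atxn7l3-/- mESCs and Aldh1a1 (33.7) with Rarg (33.4) in WT MEFs. In labelled Atxn7l3-/- MEFs Aldh1a1 still led (541), but Aldh1a2 (22.04) then stood above Rarg (20.45). At that length Rarg made up 21.85 of a sum of 34.03 in WT mESCs. In Atxn7l3-/- mESCs it made up 7.62 of 25.81, and so no longer most of the sum.

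Other genes of the pathway came from lists of 61 genes by role, the 9 included. In mESCs 47 could be tested, and besides Rarg 1 passed (of all genes tested 3.08% passed as higher and 3.88% as lower): Rbp7, which encodes a retinol-binding protein, rose from 0.408 and 0.294 CPM in WT to 1.74, 2.03 and 1.77 CPM in Atxn7l3-/- libraries (log2 fold change 2.38, SE 0.52, adjusted p 0.0404). The knockout libraries lay together and apart from WT. The call was lost in 1 fit of the 11 libraries (adjusted p 0.114) and without WT replicate 1, WT replicate 2 or knockout replicate 1 (0.222, 0.266 and 0.104), in a range from 8.49e-05 to 0.266. The median over the 47 was 0.32, against 0.044 over all genes tested. The count of 2 pathway genes called became 0 without WT replicate 1, WT replicate 2 or knockout replicate 1, where edgeR gave 10, 10 and 11 at an unadjusted p under 0.05 and DESeq2 called 10 with the 5 libraries, and it became 5 and 4 without knockout replicate 2 or 3. Without knockout replicate 1, 3979 of 17530 genes tested had an unadjusted p under 0.05, and DESeq2 called 3390 of 19040 with the 5 libraries. Of the 4 nuclear receptors of retinoids tested in mESCs, 3 had a negative log2 fold change and Rarg alone passed. In MEFs all 6 tested had a negative log2 fold change, beside 8376 of 15958 genes, and Rxrg alone passed.

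In MEFs 48 of the 61 could be tested, 4 passed as higher and 4 as lower, beside 5.01% and 4.39% of all genes tested, and their median was -0.16, also with Rxrg at its bound, against -0.056 over all genes. The 8 called became 4 without WT replicate 1 or 2, 2 without WT replicate 3 and 1 without knockout replicate 1 or 2. Besides the 3 members these were 2 genes higher and 3 lower. Aldh1a3, the remaining retinaldehyde dehydrogenase of the family, stood at 13.7, 5.83 and 42.2 CPM in WT and 0.162, 1.163 and 0.247 CPM in labelled Atxn7l3-/- MEFs, opposite in direction to Aldh1a1. It fell by 5.28 on the log2 scale (SE 1.11, adjusted p 0.0383). That call was lost with the block (adjusted p 0.0503), with the GC correction and block (0.0692), without WT replicate 1 or 3 (0.0642 and 0.0921) and without knockout replicate 1, 2 or 3 (0.0943, 0.0566 and 0.0588), in a range from 3.64e-07 to 0.0943. Rxrg, a partner receptor, had 38, 9 and 17 counts in WT and 0 in each labelled Atxn7l3-/- library, at least 19.5-fold lower against 3 counts over the group (adjusted p 0.0306). Its call was lost with the GC correction and block (adjusted p 0.0616), without WT replicate 1, 2 or 3 (0.0627, 0.0516 and 0.0871) and without knockout replicate 1 or 2 (0.0771 and 0.0812), in a range from 0.000349 to 0.0871. Zfp423, a zinc finger cofactor of the receptors, fell from 22.4, 15.0 and 9.57 CPM to 2.31, 1.67 and 1.48 CPM (log2 fold change -3.11, SE 0.44, adjusted p 0.016). It did not pass without knockout replicate 1 or 2 (adjusted p 0.0513 and 0.06, range 5.56e-10 to 0.06).

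The MEF genes that passed as higher both came from the list of response genes. Tgm2, a transglutaminase induced by retinoic acid in many cells, stood at 31.3, 31.9 and 37.5 CPM in WT and at 151, 158 and 143 CPM in labelled Atxn7l3-/- MEFs. Both groups were tight and far apart, and it rose by 2.17 on the log2 scale (SE 0.18, adjusted p 0.0057), a call kept under all 14 alternatives, with a highest adjusted p of 0.0322. Meis2, a homeobox gene, rose from 40.8, 56.5 and 74.8 CPM to 129.8, 179.5 and 115 CPM (log2 fold change 1.30, SE 0.29, adjusted p 0.0436). Its groups were also apart, but the call was lost where 10 counts were required of every library (adjusted p 0.0512), with the GC correction (0.0548) and with that correction and the block (0.0507). It was lost as well without WT replicate 1, 2 or 3 (0.0806, 0.0826 and 0.0732) and without knockout replicate 1 or 2 (0.107 and 0.132), in a range from 0.0058 to 0.132. Of the 9 response genes tested, 4 had a positive and 5 a negative log2 fold change, with a median of -0.10.

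**Figure D4:**
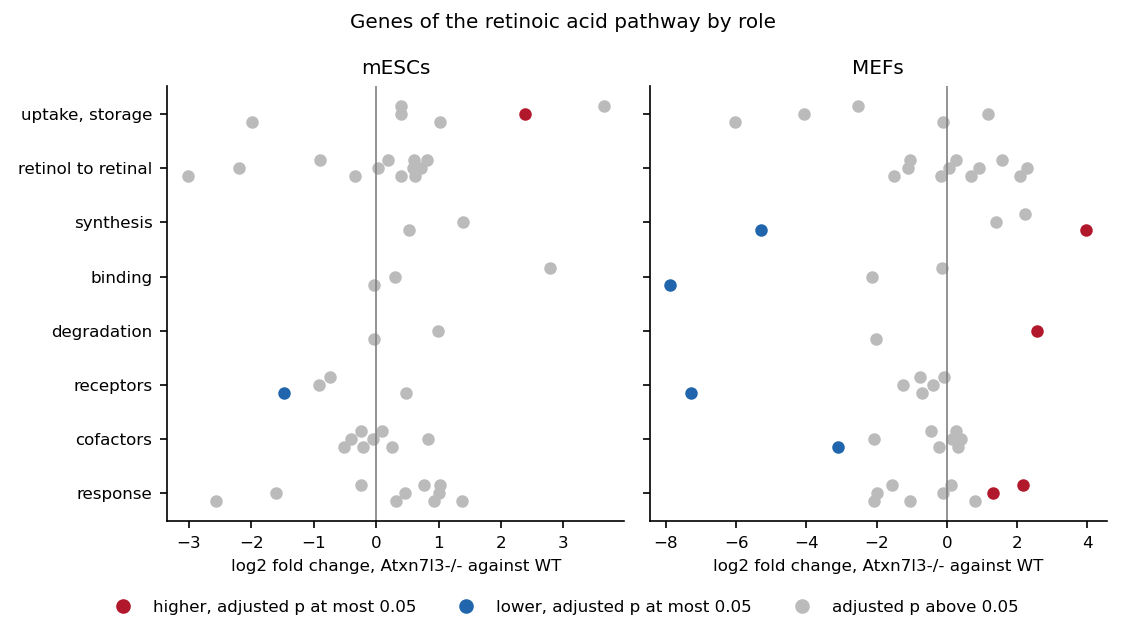
Log2 fold change, Atxn7l3-/- against WT (x axis), of each tested gene of the retinoic acid pathway by role (y axis), in mESCs and MEFs. Points are genes, red where higher and blue where lower at an adjusted p of at most 0.05. The value of Rxrg, the blue point among the MEF receptors, depends on the prior count, since the gene had 0 counts in the knockout.

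Between WT cells, 54 of the 61 could be tested, with 26 higher in MEFs and 6 lower, beside 26.8% and 27.1% of all genes tested, and a median of 1.48, against -0.005 over all genes. Besides the members, the higher genes included Ttr, Rdh10, Rdh11, Rdh14, Dhrs9, Rdh5, Aldh1a7, Fabp5, Rxra, Rxrg, Zfp423, Tgm2, Meis1, Meis2, Nr2f1, Nr2f2, Rarres1, Rarres2 and Pdk4, from 0.54 for Rdh11 to 7.62 for Rarres1. The lower genes were Adh5, Ncor1, Ncoa1, Ncoa3, Stra8 and Cdx1, from -1.12 for Adh5 to -8.43 for Cdx1. Ttr also stands in the primitive endoderm list. Of the refits of these genes under the alternatives, 290 kept the call and 33 lost it, among them for Rdh11 10, Ttr 5, Rxrg 4, Rarres2 3, Fabp5 2 and Rdh5, Rarres1 and Pdk4 1 each. The 32 called became 21 without mESC WT replicate 2. Of the 11 response genes tested, 8 were higher and 2 lower, beside the same shares. Between knockout cells 22 were higher and 13 lower, beside 29.5% and 31.5% of all genes tested, with a median of 0.66, also with genes at 0 counts at their bound, against -0.104 over all genes. The other higher genes there included Rdh11, Rdh14, Dhrs4, Dhrs9, Rdh5, Aldh1a7, Rxra, Tgm2, Meis1, Meis2, Nr2f1, Nr2f2, Rarres1, Rarres2 and Pdk4, and the other lower ones Rbp4, Rbp7, Adh1, Adh5, Rdh13, Bco1, Aldh1a3, Ncoa1, Ncoa3, Zfp423, Stra8 and Cdx1. They ran from 0.59 for Rdh11 to 9.51 for Aldh1a7 and from -0.80 for Rdh13 to -8.71 for Cdx1, with Bco1 at 0 counts in the MEFs and at least 2.825-fold lower against 3 counts over the group. Of their refits 319 kept the call and 41 lost it, for Rxra 9, Bco1 8, Rdh11 6, Pdk4 6, Rdh13 5, Dhrs4 4, Rbp4 2 and Rarres1 1. In the test of the difference between the knockout effects, 2 of the 54 passed as higher and 5 as lower, beside 6.14% and 5.27% of all genes tested, with a median of -0.29, against -0.093 over all genes. These 7 became 0, 2, 3 and 4 without mESC WT replicate 1, WT replicate 2, knockout replicate 1 or knockout replicate 3, and 4, 3, 3 and 11 without MEF WT replicate 3 or knockout replicate 1, 2 or 3. The 0 came from edgeR, which gave 12 at an unadjusted p under 0.05, and DESeq2 called 16 with the 11 libraries. Over all genes DESeq2 called 4188 of 19587. The replicate block gave 4, beside 1381 of 19326 genes.

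Marker lists of other cell types moved along with these genes in MEFs. The 8 mesothelial genes, of the cell layer that lines body cavities, summed to 86.4, 50.2 and 44.8 CPM in WT and to 9511, 9270 and 6338 CPM in labelled Atxn7l3-/- MEFs. Their most abundant gene was Gpm6a in WT (28.1 ± 34.2 CPM) and Upk1b in labelled Atxn7l3-/- MEFs (2157 ± 424.5 CPM). Of the 8, 6 passed as higher (Wt1, Msln, Upk3b, Upk1b, Lrrn4 and Gpm6a), Krt19 and Cdh1 did not, and none was at 0. Every labelled Atxn7l3-/- library was thus high in mesothelial transcripts and every WT library low, the same split as for Aldh1a1. The 8 primitive endoderm genes summed to 335, 260.4 and 181 CPM in WT and 945, 888 and 463 CPM in labelled Atxn7l3-/- MEFs, with Dab2 the most abundant in both (239.8 ± 79.4 and 438 ± 178 CPM), Gata4 and Gata6 passing as higher, Sox7 as lower and Sox17 at 0 in the latter. Foxa2, Ttr and Afp were low and overlapped between the groups, so the higher sum rested on Dab2, Gata4 and Gata6. The part of the cells that these lists mark in the levels of Aldh1a1, Cyp26a1 and Tgm2 was not tested, since in these 6 libraries genotype and mesothelial level cannot be told apart.

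Marker lists that were lower moved along with Crabp1. The 5 cartilage genes summed to 175, 653 and 469.7 CPM in WT and 8.40, 2.65 and 8.46 CPM in labelled Atxn7l3-/- MEFs, with Col2a1 the most abundant in WT (389.6 ± 206 CPM) and Sox9 in the others (4.65 ± 2.33 CPM). Col2a1 passed as lower, and Matn1 and Col9a1 were at or under 3 counts over the labelled Atxn7l3-/- group. The 8 neural genes summed to 133.5, 47.2 and 224 CPM in WT and 9.16, 1.57 and 32.0 CPM in labelled Atxn7l3-/- MEFs, with Tubb3 the most abundant (58.7 ± 51.6 and 11.8 ± 16.0 CPM). Sox10 and Foxd3 passed as lower, and Neurog2 and Foxd3 were at 0 in all 3 labelled Atxn7l3-/- libraries. Among WT MEFs, replicate 2 was the highest for cartilage genes, Crabp1 and Crabp2 alike, while replicate 3 was the highest for neural genes and Aldh1a3. Their part in the fall of Crabp1 was not tested.

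The remaining lists split the MEF groups less cleanly. The 8 macrophage genes summed to 872.5, 963 and 486 CPM in WT and 5467, 2048 and 787 CPM in labelled Atxn7l3-/- MEFs, led by Lyz2 in both (466 ± 145 and 2389 ± 2075 CPM). The 6 endothelial genes summed to 72.3, 33.2 and 17.2 CPM in WT and 19.1, 9.63 and 4.94 CPM in labelled Atxn7l3-/- MEFs, led by Kdr (29.0 ± 35.6 CPM) and Tek (5.69 ± 4.82 CPM). The 6 muscle genes summed to 45.7, 16.4 and 28.8 CPM and to 63.3, 37.1 and 15.2 CPM, led by Tnnt2 (16.6 ± 5.03 and 37.5 ± 23.3 CPM), with Myf5 at 0 in the latter. The 9 fibroblast genes stood at 10150, 44930 and 19500 CPM in WT and at 15770, 17070 and 25070 CPM in labelled Atxn7l3-/- MEFs, and these groups overlapped. Of its 9 genes none passed, and 3 lay lower in every labelled Atxn7l3-/- library than in any WT library, as Crabp1 did: Prrx1 (429, 511 and 433 against 24.3, 5.50 and 312.5 CPM, adjusted p 0.303), Postn (369.6, 3911 and 472 against 5.17, 2.17 and 159.8 CPM, adjusted p 0.135) and Vim (2881, 3472 and 5327 against 1254, 1199 and 2597 CPM, adjusted p 0.121). Their part in the fall of Crabp1 was likewise not tested. None of the sums of these 4 lists separated the groups as the mesothelial list did, since in each the ranges overlapped.

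**Figure D5:**
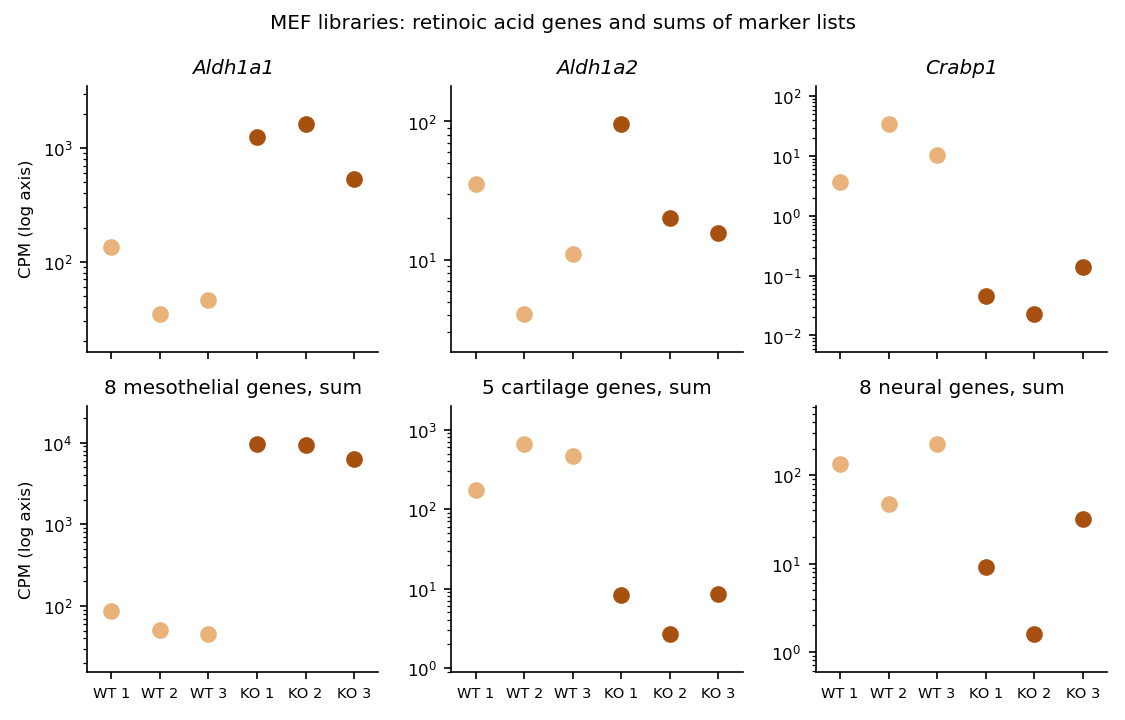
CPM (log y axis) of Aldh1a1, Aldh1a2 and Crabp1 and of the summed mesothelial, cartilage and neural marker lists in the 6 MEF libraries, WT 1 to 3 and KO (labelled Atxn7l3-/-) 1 to 3 (x axis). Each point is 1 library. Mesothelial sums of 6338 CPM and more go with Aldh1a1 at 529.8 CPM and more, and sums of 86.4 CPM and less with Aldh1a1 at 136 CPM and less.

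In mESCs the marker lists differed less between the genotypes. The mesothelial list summed to 1300 and 931 CPM in WT and 1306, 1371 and 1224 CPM in Atxn7l3-/- mESCs, led by Cdh1, which pluripotent cells also express (925 ± 119.5 and 1099 ± 32.7 CPM), with Gpm6a at 0 in the latter. The primitive endoderm list summed to 34.3 and 17.6 CPM and to 24.5, 24.2 and 14.01 CPM, led by Dab2 (18.8 ± 10.2 CPM) and Gata4 (8.06 ± 1.896 CPM), and Sox7 passed as lower. Neural genes summed to 53.9 and 75.9 CPM in WT and 25.8, 25.4 and 31.9 CPM in Atxn7l3-/- mESCs, led by Tubb3 (34.6 ± 14.1 and 9.23 ± 2.40 CPM), and Tubb3 and Foxd3 passed as lower. The 5 of 6 muscle genes listed summed to 5.13 and 4.53 CPM in WT and 3.01, 1.72 and 0.712 CPM in Atxn7l3-/- mESCs, led by Myh6, with Myod1 at 0 in the latter. Fibroblast genes summed to 63.8 and 184 CPM in WT and 368.5, 504.5 and 379 CPM in Atxn7l3-/- mESCs, led by Vim (56.3 ± 26.4 CPM) and Col1a1 (183.5 ± 24.0 CPM). The 5 of 8 macrophage genes that the mESC table lists summed to 70.2 and 38.4 CPM and to 99.75, 74.5 and 132.5 CPM. Nearly all of this was Cd68 (62.9 and 28.8 against 97.4, 70.8 and 129.8 CPM), while Csf1r (4.10 and 2.76 against 1.47, 1.31 and 0.0264 CPM) and Mrc1 (3.20 and 6.81 against 0.662, 2.31 and 2.56 CPM) were lower in every Atxn7l3-/- library than in any WT library, and none of the 3 passed. Cartilage genes summed to 26.6 ± 4.35 and 26.9 ± 5.11 CPM and the 5 of 6 endothelial genes listed to 429.6 ± 60.2 and 375 ± 56.8 CPM, led by Acan and Col2a1 and by Pecam1. Among the cartilage genes Acan was lower in every Atxn7l3-/- library than in any WT library (15.5 and 20.0 against 4.42, 5.29 and 1.08 CPM), while Col2a1 (5.03 and 7.83 against 19.4, 12.1 and 19.1 CPM) and Matn1 were higher, and none of these passed. The neural and muscle lists were thus lower in every Atxn7l3-/- library, as Rarg was, and the fibroblast list and, through Cd68, the macrophage list higher. The part of these 4 lists in the fall of Rarg was not tested.

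Over the 11 libraries the genes most like each member in log2 CPM, by Pearson's r, were found as a description, since the libraries share cell type, depth and culture. For Rarb they were Plppr5 (0.981) and Gm43128 (0.975), for Rarg Gm16845 (0.963) and Fibp (0.938), and for Crabp1 Cdo1 (0.977) and Rgcc (0.974). For Crabp2 they were Slc35b2 (0.988) and Lppos (0.984), for Aldh1a1 Fgf2 and Ccdc149 (both 0.995), and for Aldh1a2 Ehd4 (0.952) and Wwp1 (0.905). For Cyp26a1 they were Cntn2 (0.862) and Nprl2 (0.857), for Cyp26b1 Hoxc5 (0.978) and Serpine2 (0.961), and for Dhrs3 Pgrmc2 (0.974) and Pcdhb13 (0.973). How many genes exceeded an r of 0.9 ranged widely, from 1776 for Aldh1a1 and 937 for Rarb, which separate the cell types, to 17 for Rarg, 2 for Aldh1a2 and 0 for Cyp26a1. No member was among the genes most like another.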

How the data were processed

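The tables hold raw counts of reads per gene, as deposited by the authors, with 1 column per library, and the median transcript length in bases per gene, also deposited by the authors. Before deposit, stranded poly(A) reads had adapter, poly(A) and low-quality sequence removed and were mapped to mm10 with STAR 2.5.3a. Which annotation was counted on, and whether strands were kept apart, is not stated. The normalized values and the results of the authors' comparisons in the same tables were not used.

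Counts were fitted with edgeR 4.0.16 in R 4.3.3 (filterByExpr, TMM, quasi-likelihood test, Benjamini-Hochberg over all genes tested), each cell type alone for the genotype effects and all 11 libraries over the 26398 genes listed in both tables for the rest. Both fits were run on simulated counts. These had the same modest spread between libraries for every gene, smaller than that of most members in MEFs, and changes only in well-counted genes. Standard errors are the log2 fold change over the root of F, and the prior count was 2. Alternatives were DESeq2 1.42.0, its scaling (RLE), no filter on low counts, 10 counts in every library, the replicate number as a block, a lowess correction for transcript GC (span 0.3), both together, and each library left out in turn. The longest coding transcript was added as a length after seeing the data. MEF replicate numbers were taken to pair libraries, since the deviations of same-numbered libraries from their group means correlated at 0.473, 0.161 and 0.240. Deviations cancel within a group, so the mean of the 6 other pairs (-0.146) follows from these values and is no separate evidence of pairing. The labels give no litter or day for these numbers.

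The text names Atxn7l3, the 9 members, genes of the pathway lists at an adjusted p of at most 0.05 in a comparison, the most abundant gene and genes at 0 of each marker list, and the 2 genes most like each member. Members and lists were chosen with earlier results of these data known. Other marker genes, Aldh1a7 in MEFs and genes overlapping a member were named after their values were seen.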

Additional observations from a re-analysis of the deposited data

Results flagged for a closer look

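For 8 of the named genes the effect of the knockout differed between the cell types, by the test of the difference itself in 1 fit of the 11 libraries (effect in MEFs minus effect in mESCs, log2). Crabp1 differed by -7.78, as given above.

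Atxn7l3, the gene knocked out, differed by 5.97 (SE 0.58, adjusted p 0.000664), with a log2 fold change of -6.65 in mESCs and -0.74 in MEFs. It passed under all 18 alternatives, with a highest adjusted p of 0.00465.

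Zfp423 differed by -3.85 (SE 0.60, adjusted p 0.00621). It stood at 4.06 and 5.48 CPM in WT mESCs and 9.26, 7.03 and 9.05 CPM in Atxn7l3-/- mESCs, while in MEFs each labelled Atxn7l3-/- library lay below each WT library. Without mESC WT replicate 1 the adjusted p was 0.0523, at -3.62, the highest of a range from 2.92e-10.

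Aldh1a3 differed by -5.77 (SE 1.41, adjusted p 0.0288). Its mESC levels were 5.18 and 3.49 CPM in WT and 5.59, 10.58 and 2.58 CPM in Atxn7l3-/- libraries, which overlapped, while its MEF levels did not. It did not pass without mESC WT replicate 1 or 2 (adjusted p 0.125 and 0.144), mESC knockout replicate 1 (0.0587), MEF WT replicate 3 (0.0544) or MEF knockout replicate 1 (0.0508), nor with the replicate block (0.0514) or the GC correction and block (0.0646). The range was 0.000109 to 0.144.

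Rdh10, which encodes the enzyme that oxidises retinol, differed by -2.04 (SE 0.58, adjusted p 0.0462). It stood at 11.9 and 6.65 CPM in WT and 11.01, 15.1 and 15.6 CPM in Atxn7l3-/- mESCs, and at 79.1, 28.4 and 40.9 CPM in WT and 20.5, 13.5 and 17.8 CPM in labelled Atxn7l3-/- MEFs. The mESC groups overlapped and the MEF groups did not. The call was lost without mESC WT replicate 1 or 2 (adjusted p 0.0994 and 0.192), mESC knockout replicate 1, 2 or 3 (0.0687, 0.0692 and 0.0864), MEF WT replicate 1 or 3 (0.0659 and 0.0645) and MEF knockout replicate 1, 2 or 3 (0.066, 0.0947 and 0.0556). It was also lost with no filter (0.0572) and with the block (0.0685), in a range from 0.00829 to 0.192.

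Fabp5, a carrier of fatty acids and retinoic acid, differed by -2.85 (SE 0.83, adjusted p 0.0487). It stood at 3.29 and 3.67 CPM in WT and 46.8, 7.70 and 17.8 CPM in Atxn7l3-/- mESCs, and at 13.7, 11.6 and 16.7 CPM in WT and 15.6, 13.8 and 8.38 CPM in labelled Atxn7l3-/- MEFs, where the groups overlapped. It failed to pass without mESC WT replicate 1 or 2 (adjusted p 0.178 and 0.16), mESC knockout replicate 1 or 3 (0.0904 and 0.0684), MEF WT replicate 1, 2 or 3 (0.06, 0.056 and 0.0865) and MEF knockout replicate 1, 2 or 3 (0.0705, 0.0862 and 0.0639). It was also lost with no filter (0.0541), the block (0.11) and the GC correction and block (0.12), in a range from 0.00608 to 0.178.

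Tgm2 differed by 1.47 (SE 0.40, adjusted p 0.0416). It stood at 12.01 and 16.6 CPM in WT and 34.9, 15.1 and 23.2 CPM in Atxn7l3-/- mESCs, which overlapped, while its MEF groups were far apart. The call was lost without mESC WT replicate 1 or 2 (adjusted p 0.0907 and 0.176), mESC knockout replicate 3 (0.0853), MEF WT replicate 1, 2 or 3 (0.0608, 0.0579 and 0.0602) and MEF knockout replicate 1 or 2 (0.0808 and 0.0837), and with the block (0.105), in a range from 0.0107 to 0.176.

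Nr2f2, an orphan nuclear receptor induced by retinoic acid in many cells, differed by 2.496 (SE 0.59, adjusted p 0.0264). It stood at 1.697 and 0.589 CPM in WT and 0.1804, 0.286 and 0.105 CPM in Atxn7l3-/- mESCs, and at 42.6, 37.3 and 41.3 CPM in WT and 33.8, 40.1 and 38.9 CPM in labelled Atxn7l3-/- MEFs, where the groups overlapped. It did not pass without mESC WT replicate 1 (adjusted p 0.147), mESC knockout replicate 1 or 3 (0.0663 and 0.0573) or MEF knockout replicate 2 (0.0539), and with the block (0.0908) and the GC correction and block (0.0705), in a range from 0.00131 to 0.147.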

How the results depend on the processing

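Counts of genes past the threshold moved more than the values of single genes. Where a move is not explained by fewer genes or libraries tested, the cause was not tested.

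In mESCs 1 of the 9 genes passed, and 2 with no filter, 2 with DESeq2 and 0 in 1 fit of the 11 libraries. In that fit edgeR gave 1 at an unadjusted p under 0.05, beside 4195 of all 19326 genes. The 2 pathway genes became 7 with no filter, 10 with DESeq2, 4 with the replicate block, 4 with the GC correction, 4 with both and 1 in 1 fit of the 11 libraries. All genes went from 1238 to 2995, 3390 and 446 with no filter, DESeq2 and the 1 fit. Leaving out 1 library gave 0 to 1 of the 9 genes, 0 to 5 pathway genes and 0 to 2242 genes in all (edgeR, where 2932 or more had an unadjusted p under 0.05). The mESC replicate numbers share only a number (same-numbered pairs correlated at 0.00777 and -0.172), and the block gave 1435 genes in all and 1 of the 9.

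In MEFs 3 of the 9 passed, and 1 where 10 counts were required of every library, which took Crabp1 and Cyp26a1 out of the test. The 8 pathway genes became 3 under that requirement, 17 with DESeq2 and 16 in 1 fit of the 11 libraries, and all genes went from 1501 to 846, 3920 and 3569. Leaving out 1 library gave 0 to 3 of the 9, 1 to 10 pathway genes and 197 to 2038 genes in all (edgeR). There 4 or 5 of the 9 had an unadjusted p under 0.05, beside 3566 to 5989 of all genes tested.

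For the difference between the effects 1 of the 9 passed, and 0 where 10 counts were required (edgeR, with Crabp1 not tested and 2 at an unadjusted p under 0.05), 4 with DESeq2, 2 with the block, 3 with the GC correction and 3 with both. Of all 11887 genes tested where 10 counts were required, 4230 had an unadjusted p under 0.05. The 7 pathway genes became 16 with DESeq2 and 4 with the block, and all 2205 genes became 4188 with DESeq2, 1381 with the block and 1368 with the GC correction and block. Leaving out 1 library gave 0 to 2 of the 9 (edgeR, where 2 or more had an unadjusted p under 0.05), 0 to 11 pathway genes and 253 to 3140 genes in all.

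Between cell types the requirement of 10 counts gave 2 of the 9 genes, 17 pathway genes and 6455 genes in WT cells, against 5, 32 and 10423, and 2, 12 and 7219 in knockout cells, against 7, 35 and 11787. Leaving out 1 library gave 3 to 6, 21 to 33 and 6518 to 10225 in WT cells.

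Signs that turned all belonged to values that had not passed. With the GC correction MEF Rarb was at 0.18 and MEF Rarg at 0.089, and with the block as well MEF Rarg was at 0.15. The difference for Aldh1a2 was -0.0098 where 10 counts were required. Leaving out 1 library gave ranges of -0.31 to 0.28 for Crabp1, -0.13 to 0.90 for Crabp2 and -0.55 to 0.77 for Cyp26a1 in mESCs, -0.58 to 0.53 for Rarb in MEFs and -1.23 to 1.23 for the difference of Aldh1a2.

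The summed level per length was 34.03 in WT mESCs, 25.8 in Atxn7l3-/- mESCs, 155 in WT MEFs and 604 in labelled Atxn7l3-/- MEFs with the longest coding transcript, which lengthens Rarg. Leaving out 1 library moved it between 106.5 and 111 in WT mESCs with the median length.

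Besides the calls named beside their results, the MEF replicate block changed no other call of a member. Depth limits Rarb, Aldh1a1 and Cyp26a1 in mESCs and Crabp1 and Cyp26a1 in MEFs, where a library holds few counts.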
